A study of Mus musculus with 52 samples.

Results

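The regions described here are enhancers of mouse embryonic stem cells (mESCs) whose centre lies within 1 kb of the transcription start site (TSS) of a gene. The deposited mESC table runs through the chromosomes in order, from chromosome 1 to X, and then starts over. The regions were taken from the second, longer run of 8563 rows, had to be shorter than 5000 bp, and were measured against the 5′ ends of the gene intervals in the authors' gene table. The rule found 230 regions among 8794 mESC enhancers, or 2.92% of the 7879 enhancers of that run under the length limit. It leaves out 13 regions of the leading block of rows, and 19 of the 684 longer regions of the second run, that are also centred at a TSS. The label was checked against the GENCODE M21 annotation, in which 224 of the 230 were centred within 1 kb of an annotated TSS, as were 469 of the 7649 remaining enhancers (6.13%). The last regions inside the limit were those of Hes3 (993 bp from the TSS), 4930442L01Rik (994 bp) and Prrt3 (995.5 bp), and the first outside were those of 1700007L15Rik (1015 bp), Gsta4 (1019.5 bp) and Msln (1022 bp).

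The series holds 52 chromatin immunoprecipitation sequencing libraries, 43 from mESCs and 9 from epiblast-like cells (EpiLCs), which model the formative epiblast that follows the naive state. Control mESCs (ABE), grown naive with LIF and inhibitors of GSK3 and MEK1 on a C57BL6/129Sv background, were set against clones with H3 lysine 27 replaced by arginine in canonical H3 only (cK27R) or in all H3 (pK27R), besides further lines including SUZ12 knockouts. The tables analysed here are lists of regions with 0 columns of values per library, so no genotype enters the results below. Both enhancer sets came from earlier publications, and a difference between them cannot be told apart from the way each was defined.

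A promoter is the DNA around a TSS where RNA polymerase II assembles, and an enhancer is a regulatory element that raises transcription of a gene that may lie far away. Many mammalian promoters lie in CpG islands, stretches rich in the CpG dinucleotide that escape DNA methylation, while most distal enhancers are CpG-poor. In mESCs, enhancers are bound by pluripotency factors such as OCT4, SOX2, KLF4, ESRRB and STAT3, whose binding motifs are short and recur throughout the genome.

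Stretches of 160 bases from 8 of the regions are printed first, as examples picked for their gene, motifs or CpG content. They do not stand for the class as a whole. Zfp42, Dppa4 and Rif1 are pluripotency genes, and the regions of Arnt and Gm11149 match the composite OCT4-SOX2 motif. Those of Cpsf4l and Slc25a1 hold 3 different pluripotency motifs, and that of Pou2f1 is CpG-rich. The stretches were read from GRCm38.p6 (mm10), 5′ to 3′ on the strand of the gene. Each window was placed by script outside annotated exons where it held most motif matches, and the 8 were picked from 10 printable ones after their values were seen, so nothing is drawn from the motifs in them. Capitals mark motif matches on either strand. The positions are chr8:43307068-43307227 (minus strand) for Zfp42, chr16:48283569-48283728 (plus strand) for Dppa4, chr2:52071898-52072057 (plus) for Rif1, chr3:95434011-95434170 (plus) for Arnt, chr9:49518112-49518271 (plus) for Gm11149, chr11:113710242-113710401 (minus) for Cpsf4l, chr16:17929097-17929256 (minus) for Slc25a1 and chr1:166003242-166003401 (minus) for Pou2f1.
Zfp42: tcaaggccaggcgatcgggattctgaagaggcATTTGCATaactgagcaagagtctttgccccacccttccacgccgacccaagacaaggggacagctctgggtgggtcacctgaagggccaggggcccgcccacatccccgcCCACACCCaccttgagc
Dppa4: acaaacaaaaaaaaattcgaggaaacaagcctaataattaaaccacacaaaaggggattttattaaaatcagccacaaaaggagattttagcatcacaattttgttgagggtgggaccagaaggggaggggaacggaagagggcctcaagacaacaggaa
Rif1: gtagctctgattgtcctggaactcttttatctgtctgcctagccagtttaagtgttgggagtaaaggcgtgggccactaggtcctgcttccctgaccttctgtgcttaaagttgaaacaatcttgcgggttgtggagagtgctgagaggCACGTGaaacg
Arnt: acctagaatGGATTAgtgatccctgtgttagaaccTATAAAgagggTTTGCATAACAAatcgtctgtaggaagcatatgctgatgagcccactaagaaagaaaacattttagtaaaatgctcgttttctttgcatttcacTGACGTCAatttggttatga
Gm11149: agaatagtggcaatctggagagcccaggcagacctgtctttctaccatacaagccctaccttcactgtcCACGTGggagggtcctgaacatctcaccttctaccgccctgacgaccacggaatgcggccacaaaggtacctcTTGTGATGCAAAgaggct
Cpsf4l: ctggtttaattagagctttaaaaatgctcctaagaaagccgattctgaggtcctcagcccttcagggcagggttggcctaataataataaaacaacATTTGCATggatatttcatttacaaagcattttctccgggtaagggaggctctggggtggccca
Slc25a1: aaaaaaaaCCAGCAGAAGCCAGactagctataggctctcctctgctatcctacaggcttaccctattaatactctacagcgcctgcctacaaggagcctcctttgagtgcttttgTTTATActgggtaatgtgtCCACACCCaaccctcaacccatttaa
Pou2f1: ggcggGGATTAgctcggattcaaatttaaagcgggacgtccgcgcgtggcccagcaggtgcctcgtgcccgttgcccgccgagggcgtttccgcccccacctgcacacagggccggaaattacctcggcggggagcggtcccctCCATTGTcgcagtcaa
In the Zfp42 stretch the capitals are an octamer match, bound by POU factors such as OCT4, and a KLF match. In those of Arnt and Gm11149 the longest capitals are the composite motif, beside OTX2, TATA box and CREB matches at Arnt and an E box at Gm11149. The Rif1 stretch holds an E box, that of Cpsf4l an octamer, that of Slc25a1 TFCP2L1, TATA box and KLF matches and that of Pou2f1 OTX2 and SOX matches, while the Dppa4 stretch holds none. The Pou2f1 stretch holds 18 CpG dinucleotides, against 1 in that of Slc25a1 and 2 in those of Dppa4 and Cpsf4l.

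The enhancers lay more often upstream than downstream of the TSS, with the excess in the nearest 500 bp. The upstream share was 69.2% with a distance limit of 500 bp, 54.5% with 2 kb and 56.3% with GENCODE TSSs. Of the 230 centres, 139 were upstream on the gene strand (60.4%, 95% Wilson interval 54.0 to 66.5%), 90 were downstream and 1, at the histone chaperone gene Set, was on the TSS itself. The intervals given here cover counting error only, the lists have no replicates, and none of the differences between region sets below was tested. Upstream centres numbered 45 in the nearest 250 bp, 38 from 250 to 500 bp and 56 from 500 to 1000 bp. Downstream centres, that of Set included, numbered 24 in the nearest 250 bp, 13 from 250 to 500 bp and 54 from 500 to 1000 bp. The sparsest stretch was thus the one from 250 to 500 bp after the start. Among 2670 EpiLC enhancers chosen by the same distance and length limits, 47.6% were upstream, and 16.1% lay from 250 to 500 bp downstream, against 5.65% of the mESC regions.

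**Figure D1:**
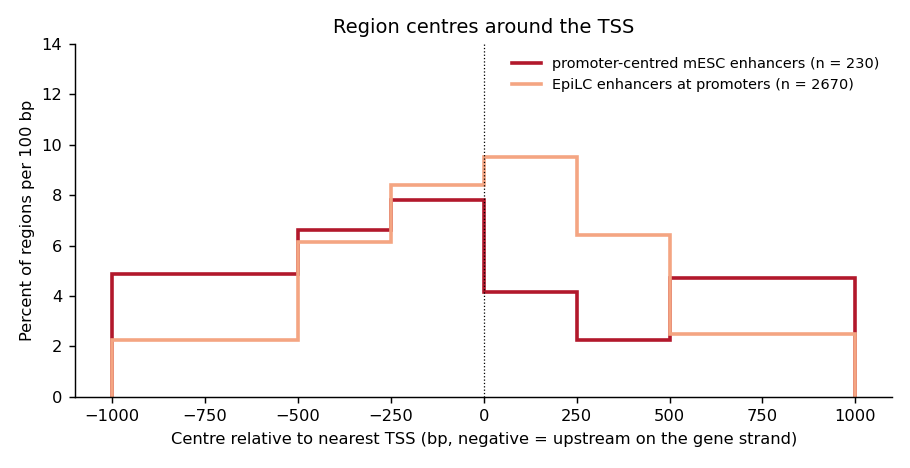
Position of region centres around the nearest TSS (horizontal axis, bp, negative values upstream on the gene strand) as the percent of regions per 100 bp (vertical axis), for 230 promoter-centred mESC enhancers and 2670 EpiLC enhancers at promoters. The mESC line drops from the last 250 bp before the TSS to the first 500 bp after it, while the EpiLC line is highest in the first 250 bp after the TSS.

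The TSS they were assigned to was covered by 105 of the 230 regions (45.7%, interval 39.3 to 52.1%), with 48.2% of upstream and 41.1% of downstream regions. This share depended on the distance limit, at 77.5% with a limit of 500 bp and 24.5% with 2 kb. Of the EpiLC enhancers at promoters, 85.9% covered theirs, but those are also wider, with a median length of 1875 bp against 734 bp (quartiles 595 and 885 bp). The median distance to the TSS was 477 bp for the mESC regions and 283.5 bp for the EpiLC regions. Among regions centred almost on a TSS were those of Smcr8 (8 bp downstream), the noncoding Evx1os (9 bp), Tbx18, a T-box factor of mesoderm (10.5 bp), and Liph (13.5 bp upstream), named after their positions were seen. Start sites of both strands lay within 1 kb of the centre in 9 regions (3.91%), against 343 EpiLC regions (12.8%). The annotation at the centre was an exon in 48 regions, an intron in 84 and intergenic in 98. All but 1 of the intergenic centres were upstream, largely by definition, since the bases after a TSS mostly lie inside its gene.

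Lengths ran from 10 to 4586 bp. The longest were those of Gpc4 on the X chromosome, a glypican (4586 bp), Fzd10, a Wnt receptor (4243 bp), Rnaseh2b, a subunit of RNase H2 (3641 bp), Nsmaf (3454 bp) and Mtrf1l (3058 bp), and 15 regions reached 1500 bp. All 5 longest covered the TSS, with centres between 246 and 938 bp from it. This coverage was fixed by the rule, since regions of 3058 bp or more reach past the distance limit on both sides of the centre. At the other end, 3 regions were under 100 bp, those assigned to Birc6 (10 bp), Pkmyt1 (13 bp) and Tomm5 (15 bp). The other mESC enhancers had 11 of that kind among 7649.

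Long noncoding RNA genes made up a larger part of the nearest genes than of the gene table. Of the 230 nearest TSSs, 178 belonged to protein-coding genes (77.4%, against 83.0% of all 24216 distinct TSSs) and 38 to long noncoding RNAs (16.5%, against 8.77%). The noncoding share at EpiLC promoter enhancers was 5.73%. Platr8 and Platr26, named for pluripotency-associated transcripts, were among the 38, with centres 34 bp downstream and 140.5 bp upstream of the TSS. They were the only Platr genes of 12 in the gene table with such a region, and the family was picked after seeing the names. Further noncoding genes with a centre within 100 bp of the TSS were Gm13830 (21.5 bp downstream), 5330413P13Rik (30.5 bp upstream), Wbscr25 (34.5 bp downstream), 1700125H03Rik (65.5 bp upstream) and E130018N17Rik (83 bp upstream), also named after their positions were seen.

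The class also holds 9 regions whose TSS in the gene table is the 5′ end of a small RNA interval, which for a processed RNA need not be where transcription starts. They belong to 7 microRNAs (Mir181d, Mir128-2, Mir3063, Mir152, Mir6369, Mir682 and Mir6405) and 2 small nucleolar RNAs (Snord85 and Snord52). Of these, the regions of Mir181d, Mir3063, Mir152 and Mir682 overlapped an EpiLC enhancer, where 129 of all 230 did. In 209 of the 230 regions the nearest GENCODE TSS had the same gene symbol as the nearest TSS of the gene table. In 3 cases the gene interval had no name, and the nearest GENCODE TSSs there were those of Hnrnpu, Ndufaf3 and Nefl.

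Genes with an enhancer of this class included 3 pluripotency genes, 2 Wnt receptor genes and 1 homeodomain gene of the lists examined. Across all 23745 named genes, 242 had one (1.02%), each with a single region. Across 17 gene lists it was 6 of 446 genes (1.35%), and 13 lists had 0. The naive pluripotency list had 1 of 24 genes (4.17%), Zfp42, which encodes the zinc finger protein REX1. The general pluripotency list had 2 of 20 (10%), namely Dppa4, a chromatin-associated factor of the early embryo, and Rif1, a regulator of replication timing and DNA repair. The Wnt list had 2 of 27 (7.41%), the receptor genes Fzd2 and Fzd10. By the GENCODE annotation the Fzd10 region falls outside the limit, at about 1168 bp from the nearest TSS. The homeodomain list had 1 of 46 (2.17%), Cdx1, a regulator of posterior patterning. These shares lie above that of all genes but rest on 1 or 2 genes each, and were not tested.

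**Figure D2:**
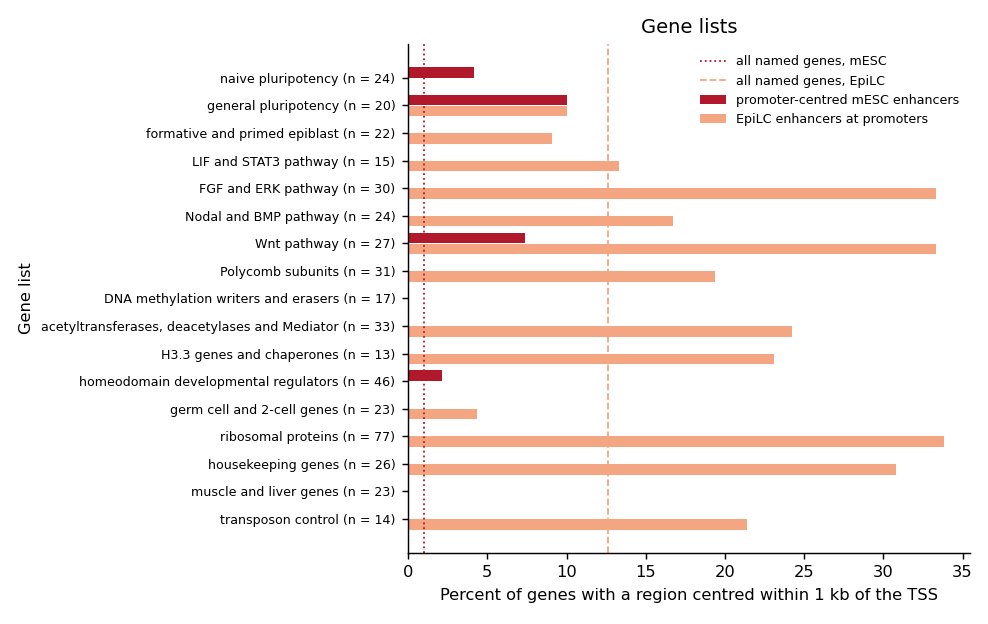
Percent of the genes in each of 17 lists (number in the gene table in brackets) with an enhancer centred within 1 kb of the TSS, for promoter-centred mESC enhancers and EpiLC enhancers at promoters. The vertical lines mark all named genes, at 1.02% for mESC and 12.6% for EpiLC enhancers, and 13 lists have no mESC bar.

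The regions at Zfp42 and Dppa4 covered the TSS, and those at Rif1 and Fzd2 stood off it. The Zfp42 region (chr8:43306841-43307544, 704 bp) was centred 183 bp upstream, and 1 other mESC enhancer, a region of the table's leading block, and 1 EpiLC enhancer were centred 1 to 50 kb from its TSS. The Dppa4 region (chr16:48283386-48284012, 627 bp) was centred 36.5 bp upstream, with 1 other mESC enhancer and 5 EpiLC enhancers around it. The Rif1 region (chr2:52071089-52072747, 1659 bp) was centred 919.5 bp upstream and did not reach the TSS, and no further enhancer of either set was centred 1 to 50 kb from that TSS. The Fzd2 region (chr11:102603309-102603862, 554 bp) was centred 846 bp upstream, and that of Fzd10 (chr5:128599892-128604134, 4243 bp) 906.5 bp downstream in an exon. These 5 regions overlapped an EpiLC enhancer, and the region of Cdx1 (2227 bp, centred 561.5 bp downstream in an intron) did not, where 129 of all 230 did. Within 2 kb of the TSS the naive and general pluripotency lists held 7 genes, the further ones being Dppa3 (1776 bp upstream), Fbxo15 (1443 bp upstream), Sall1 (1227.5 bp upstream) and L1td1 (1403 bp downstream). The share of all named genes at that limit is not given here, so the count of 7 has no background. All 7 regions overlapped an EpiLC enhancer, where 54.5% of the 457 regions within 2 kb did.

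The sequence of these enhancers lay between that of the other mESC enhancers and that of promoters. In windows of 500 bp on the region centre, the CpG ratio (CpG dinucleotides observed over those expected from the C and G content) had a median of 0.336 (quartiles 0.215 and 0.540). It was 0.173 in the other mESC enhancers, 0.689 in EpiLC enhancers at promoters and 0.579 in windows on all TSSs. Median GC content followed the same order, at 48.2%, 45.0%, 58.4% and 57.4%. Repeats took a median of 12.2% of the window, against 14.8% in the other mESC enhancers and 6.0% at all TSSs.

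CpG-island-like windows, meaning a GC content of at least 50% and a CpG ratio of at least 0.6, numbered 31 of 230 (13.5%, interval 9.66 to 18.5%). The share depended on the rule for the regions and was 7.66% with centres up to 2 kb from a TSS and 5.77% with GENCODE TSSs. The share over all mESC enhancers of the same rows and length was 0.8%, and 32 of the 7649 others (0.418%) were of this kind. Of the windows on all TSSs 47.3% were, and of those on the 245 TSSs within 1 kb of a region 43.3%. The TSSs that have an EpiLC enhancer but none of the 230 regions reached 79.0%. The genes beside the enhancers thus had CpG islands at a share near that of all genes, and most of the enhancers themselves did not.

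**Figure D3:**
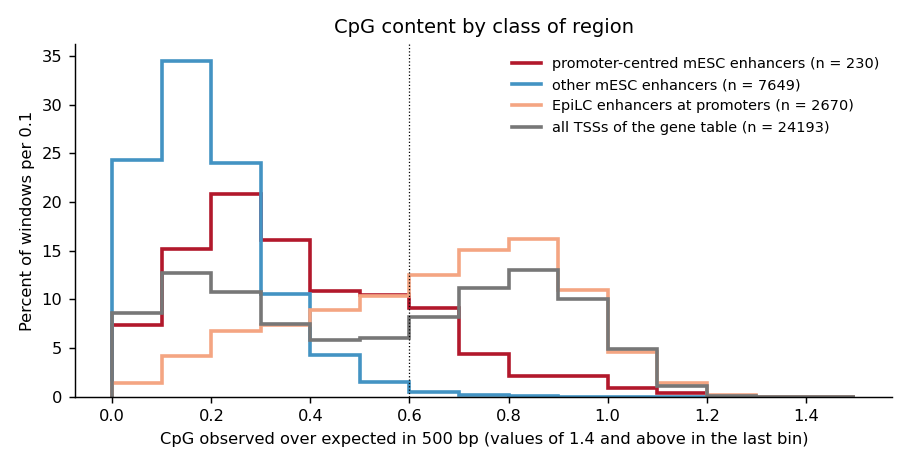
CpG observed over expected in 500 bp windows (horizontal axis, in steps of 0.1) as the percent of windows (vertical axis) for 4 classes, windows without a defined ratio left out. The dotted line marks 0.6. Promoter-centred mESC enhancers are most frequent from 0.2 to 0.3 (20.9%), the other mESC enhancers from 0.1 to 0.2 (34.5%) and EpiLC enhancers at promoters from 0.8 to 0.9 (16.2%).

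Set against the window on its own TSS, a region was CpG-island-like at both places in 29 cases, at the TSS only in 70, at the region only in 2 and at neither in 129. For the 110 regions centred over 500 bp away, the median CpG ratio was 0.303 at the region and 0.643 at the TSS. The island-like share was 21.7% for centres within 250 bp (15 of 69), 11.8% from 250 to 500 bp (6 of 51) and 9.09% beyond (10 of 110). The windows on the region and on its TSS share part of their sequence where the centre lies under 500 bp from the TSS. Those centred within 250 bp include the TSS itself. The Slc25a1 region, 867.5 bp upstream of a gene for the mitochondrial citrate carrier, had a ratio of 0.176 where its TSS had 0.896. The Gpc4 region had 0.195 at its centre and 0.871 at the TSS.

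Most CpG-rich and most CpG-poor regions stood beside protein-coding genes, 28 of the 31 island-like regions (90.3%) and 150 of the 199 others (75.4%). Of the 31 island-like regions 23 covered the TSS, against 82 of the 199 others. Only 1 of the 38 regions at long noncoding RNA genes was island-like, and their median ratio was 0.222 against 0.382 at protein-coding genes. The highest ratios were at Jag1, a Notch ligand (1.14), Pou2f1, the ubiquitous octamer factor OCT1 (1.07), the unnamed interval next to Hnrnpu (1.00), Zcrb1 (0.943) and Rangap1, the GTPase activator of nuclear transport (0.935). The lowest were 0 at the serpin genes Serpina3i and Serpina3h and at C330004P14Rik, then 0.0277 at Plcxd1 and 0.0357 at the defensin gene Defb1.

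Motif matches in the same 500 bp windows were counted on both strands with 17 fixed patterns. The octamer (ATGCAAAT) was found in 20 regions (8.70%), against 11.3% of all mESC enhancers of the same rows and length, 2.43% of EpiLC enhancers at promoters and 2.02% of windows on all TSSs. The SOX pattern (CCATTGT) was found in 30 (13.0%), against 15.1%, 3.52% and 4.91%. For ESRRB (TCAAGGTCA) it was 8 regions (3.48%), against 3.76%, 1.39% and 0.591%. The composite OCT4-SOX2 motif, whose OCT4 side shares bases with the octamer pattern, was found in 3 (1.30%), against 1.07%, 0 and 0.0372%. On these 4 patterns the values lay nearer to the mESC enhancers than to TSSs. The promoter-centred regions and the other mESC enhancers come from the same earlier published set. The part that the definition of that set has in this likeness was not tested. At least 1 of the 7 pluripotency patterns was present in 77 regions (33.5%), in 38.7% of the other mESC enhancers and in 19.5% of TSS windows.

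The remaining 3 pluripotency patterns separated the classes less. KLF (GGGTGTGG) matched 14 regions (6.09%, against 7.54% of all mESC enhancers and 5.35% of TSS windows), TFCP2L1 matched 13 (5.65%, 5.29% and 6.67%) and STAT3 (TTCCNGGAA) matched 2 (0.870%, 2.07% and 1.70%). The pattern of the formative factor OTX2 (GGATTA) matched 45 regions (19.6%), against 20.2% of all mESC enhancers, 13.97% of EpiLC promoter enhancers and 10.5% of TSS windows.

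Of the promoter patterns, the GC box of SP and KLF factors (GGGGCGGGG) was in 20 regions (8.70%), between 3.06% of all mESC enhancers and 17.4% of TSS windows. The E box of MYC (CACGTG) was in 22 (9.57%), near the 10.3% of TSS windows and above the 5.19% of mESC enhancers. The CCAAT box of NFY (CCAATCA) was in 19 (8.26%, against 7.50% and 10.0%) and the TATA box (TATAAA) in 49 (21.3%, against 26.9% and 16.4%). ETS (ACCGGAAGT) and NRF1 matched 0 regions, against 0.165% and 0.0635% of mESC enhancers and 1.504% and 1.28% of TSS windows. YY1 matched 3 (1.30%, against 0.165% of mESC enhancers and 1.91% of TSS windows). ZFP143 and CREB (TGACGTCA) matched 2 each (0.870%), against 0.114% and 0.152% of mESC enhancers and 1.46% and 2.57% of TSS windows. Base composition differs between the classes, as given above, and its part in these shares was not tested.

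**Figure D4:**
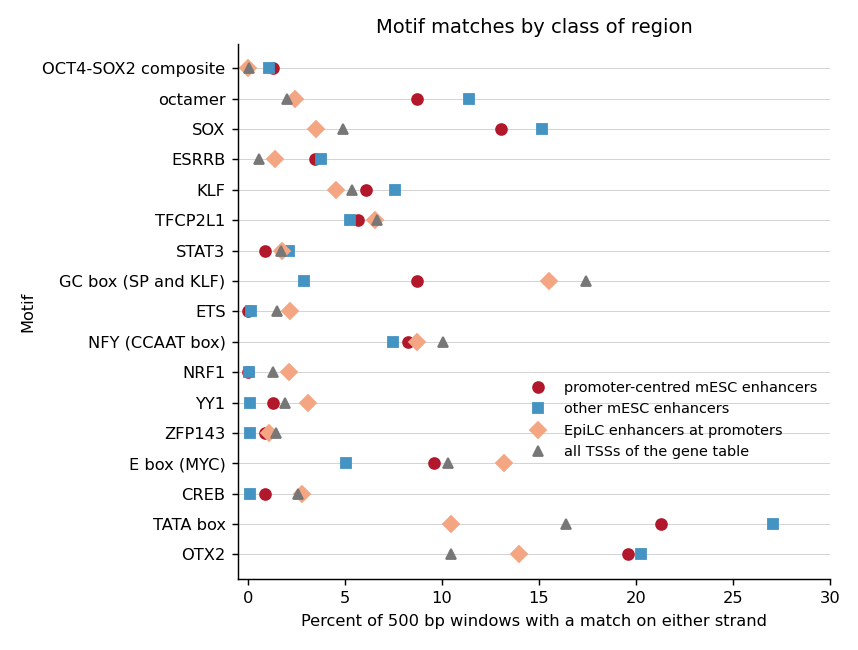
Percent of 500 bp windows with a match on either strand (horizontal axis) for each of 17 motif patterns in 4 classes of region. For octamer, SOX and ESRRB the promoter-centred mESC enhancers sit beside the other mESC enhancers, and for the GC box (8.70%) they sit between those (2.89%) and all TSSs (17.4%).

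Single regions show how the patterns combine. The composite motif was found at Hnrnpu (487.5 bp upstream of the TSS of the unnamed interval), at Arnt, the shared partner of hypoxia-inducible factors and the dioxin receptor (327.5 bp upstream), and at Gm11149 (28.5 bp upstream). In the Zfp42 region the octamer was centred 182.5 bp and the KLF match 71.5 bp upstream of the TSS, in the stretch printed above. The regions with 3 different pluripotency patterns were those of 5430431A17Rik (octamer, SOX and ESRRB), Cpsf4l (octamer, SOX and STAT3) and Slc25a1 (SOX, KLF and TFCP2L1). A match is a description of letters and not a site of binding.

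More of these regions than of other mESC enhancers coincided with an EpiLC enhancer. At least 1 bp was shared by 129 of 230 (56.1%, interval 49.6 to 62.4%), against 38.9% of all mESC enhancers of the same rows and length and 38.3% of the other 7649. Longer mESC enhancers overlapped more often, so the shares were compared within quartiles of length. They were 39.5% against 20.99% in the shortest quartile, 38.6% against 29.4% in the next, 65.2% against 41.7% in the third and 67.5% against 61.8% in the longest. The gap was thus smallest among the longest regions. The overlapped EpiLC regions had a median length of 2725 bp for the promoter-centred regions and 2200 bp for the other mESC enhancers. The part of their width in the overlap was not tested.

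**Figure D5:**
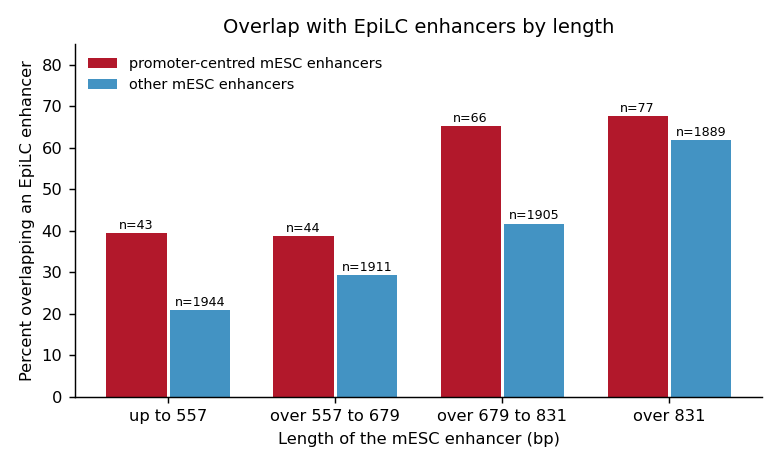
Percent of mESC enhancers that share at least 1 bp with an EpiLC enhancer (vertical axis) by quartile of the length of the mESC enhancer (horizontal axis, bp), for promoter-centred and other mESC enhancers, with the number of regions above each bar. The promoter-centred bar is the higher in each quartile, by the least in the longest.

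Within the class, overlap was 59.7% upstream and 50.0% downstream of the TSS, 58.1% for regions that covered the TSS and 54.4% for those that did not. It was 51.6% for island-like regions and 56.8% for the rest. Regions at long noncoding RNA genes overlapped in 26 of 38 cases (68.4%) and those at protein-coding genes in 96 of 178 (53.9%). Of the 129 overlapping regions 106 lay wholly inside the EpiLC region, whose median length was 2725 bp, and in 106 an EpiLC region covered the TSS as well. The EpiLC partner was itself centred within 1 kb of a TSS in 113 cases.

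Seen from the genes, 117 of the 245 TSSs within 1 kb of a region were covered by an EpiLC enhancer (47.8%), against 14% of all TSSs. In the other direction, 208 of the 2670 EpiLC enhancers at promoters (7.79%) overlapped any mESC enhancer. No share over all EpiLC enhancers is given here, so this value cannot be called high or low. From 1 to 50 kb around the TSS, 42.9% of the 245 had at least 1 further mESC enhancer, against 35.0% of other TSSs and 46.0% of TSSs with an EpiLC enhancer only. At least 1 EpiLC enhancer lay in that range for 63.3%, 53.2% and 70.6%. The numbers of neighbouring EpiLC enhancers were highest at Ywhag, a 14-3-3 protein gene (8), and at Igdcc3 and E130018N17Rik (7 each), named after their values were seen. Regions of the leading block of the mESC table lay in that range for 3 TSSs (1.22%, against 1.71% of other TSSs), those of Zfp42, Platr26 and Gabrp.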

How the data were processed

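The study sequenced chromatin immunoprecipitations of mESCs and EpiLCs. Builds listed in the submitters' processing notes are mm10 and dm6, and the tools are bedtools 2.29.2, Bowtie2 2.3.4.1 and Trimmomatic 0.38, with their use not given in the sources used here. Per the file headers, the authors' tables hold only chromosome, start, end and strand. Per the series' design text, the authors lifted both enhancer sets over from earlier publications to mm10. The tables hold 8794 mESC enhancers, 16576 EpiLC enhancers and 24402 gene intervals. With no value per library, depth is unknown, and the planned limma comparison of mutant with control libraries was not run.

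Coordinates are printed 1-based, the start being taken to count from 0. The centre is the midpoint, and the TSS the 5′ end of the gene interval. Intervals were named from RefSeq and GENCODE M21 by exact match or, on the same strand, by a shared stretch of 0.8 or more of the combined span (23811 rows named). Exact duplicates (120 rows) count once as a TSS. Sequence came from GRCm38.p6, the same build as mm10, with samtools 1.23.1 and pysam 0.24.0 under Python 3.11.15. Nearest-TSS, overlap and motif functions were tested on simulated data. All values are descriptions, since the lists have no replicates.

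The regions, gene lists and motif patterns were chosen with earlier results of these data known. Genes named were those of the lists, the 5 longest, the 5 highest and 5 lowest in CpG ratio, the 3 on each side of the distance limit, and those with the composite motif or most pluripotency patterns. Others are said to have been picked after seeing values. Alternatives changed the distance limit, the TSS annotation, the length limits, the start counting, the gene table, the overlap rule and the sequence window.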

Additional observations from a re-analysis of the deposited data

How the results depend on the processing

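The 8 main values were recomputed under 12 settings, which gave 72 alternative values. Of these, 58 stayed within the 95% interval of the main share or median, or within 1.5 times a main count, and 14 did not. Settings that leave out miRNA and snoRNA ends or regions under 100 bp were chosen after seeing the data and moved none. The number of regions was 120 with a limit of 500 bp, 457 with 2 kb and 693 with GENCODE TSSs. With the limit at 500 bp, 69.2% were upstream, 77.5% covered the TSS and the median CpG ratio was 0.394. The upstream share stayed within the interval at 54.5% with 2 kb and 56.3% with GENCODE TSSs. With 2 kb, 24.5% covered the TSS, 7.66% were CpG-island-like and the median CpG ratio was 0.287. At that limit 7 pluripotency genes had a region, a count without a matching share of all genes. With GENCODE TSSs, 5.77% were CpG-island-like and the median CpG ratio was 0.248. These settings change which regions are counted. Overlap with EpiLC enhancers was 48.3% where the EpiLC centre had to lie within 1 kb of the same TSS, which requires more of a partner. The composite motif or octamer was in 10.0% of 500 bp windows and in 4.78% of windows of 200 bp, which hold fewer bases.

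The class is small, so shares of 230 regions carry intervals of several percentage points, and counts of 1 or 2 genes in a list say little. No paired analysis was possible because the tables hold no value per library.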

Other observations

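Transcription factor genes of embryonic lineages were among the genes with a promoter-centred mESC enhancer. They were assembled by hand after the overlap values were seen, because most of their regions overlapped no EpiLC enhancer. The counts are thus a description and support nothing. The 8 genes are Gsx1 and Atoh1, factors of neural progenitors, Hes3, a HES repressor, Hesx1, a homeobox factor of the anterior neural plate and pituitary, Tfap2a, a factor of neural crest and ectoderm, Tbx18, Cdx1 and Hlf. Of their regions 1, at Hlf, overlapped an EpiLC enhancer. The way the genes were picked set this count, so it cannot be read against the 129 of 230 of the whole class. Regions at the developmental genes Ripply1 and Vrtn, left out of the set, did overlap an EpiLC enhancer. The region of Gsx1 was centred 176 bp and that of Atoh1 151.5 bp upstream of the TSS. That of Hesx1 lay 234.5 bp and that of Tfap2a 809 bp downstream. The CpG ratio ran from 0.256 at Hlf to 0.913 at Gsx1. EpiLC enhancers centred 1 to 50 kb from the TSS numbered 4 each at Gsx1 and Hesx1, 2 at Tfap2a and 1 at Hes3. At Atoh1, Tbx18, Cdx1 and Hlf there were 0.

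Other groups were also compiled by hand after the values were seen, by the function of the genes. Of the further transcription factor genes, 3 of 5 had a region that overlapped an EpiLC enhancer (Zfp42, Pou2f1 and Zfp819, not Arnt or Zfp182). Both Platr genes did, and so did 3 of 4 chromatin genes: Asxl1, a Polycomb-associated factor, Epc1, a subunit of the NuA4 acetyltransferase complex, and Set, but not Hltf. Over the whole class, 129 of 230 regions overlapped an EpiLC enhancer (56.1%). Dido1 and Trp53bp1, whose regions overlapped one, were not counted among the chromatin genes. These counts of hand-picked genes thus support nothing.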
